A study of Mus musculus with 30 samples.

Results

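Spinal cord of Gaa knockout (KO) mice was compared with spinal cord of wild-type (WT) mice, all of them untreated males aged 4 months on the B6;129 background. The comparison took the 3 KO libraries (replicates 1 to 3) and the 3 WT libraries (replicates 4 to 6) of cord labelled with that background, which are 6 of the 30 libraries of the series. Each library came from 1 animal, whose quadriceps was sequenced too. The labels describe no exon or construct for the Gaa allele, so which stretch of the gene is interrupted is not given in the sources used here. The other cord groups were WT and KO mice of a mixed background written as B6;129;DBA2/J (Ltbp4D36/D36), and KO mice of that background treated soon after birth, by vein, with AAV9 that carries a human GAA (hGAAco) and is driven from a liver-muscle promoter. Those 3 groups, each of 3 males aged 4 months, shared the fit and its estimate of the spread. The study concerns gene therapy for Pompe disease in mice with defects of the cord and of breathing, and the comparison asks what loss of Gaa does to the cord on the background without the Ltbp4 label.

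Gaa encodes acid alpha-glucosidase, the enzyme that degrades glycogen inside lysosomes, and its loss causes Pompe disease, in which glycogen fills lysosomes of muscle, motor neurons and other cells. Lysosomes hold hydrolases and cathepsin proteases behind a membrane rich in LAMP proteins, and the transcription factor TFEB drives many of their genes. In the cord, microglia are the resident phagocytes and astrocytes answer injury by raising intermediate filaments such as GFAP, so transcripts of both cell types are commonly read as signs of tissue reaction.

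Values are the deposited signal, a count scaled to library size but not to gene length, so levels are compared between libraries and not between genes. Library depth was 19208733 to 34207758 reads. A single read was worth a signal of 0.0179 to 0.0314, and 3 reads 0.0536 to 0.0943, which is the limit that a count of 0 allows. Mitochondrial transcripts took 6.99% to 7.7% of the reads. Any pair of the 6 libraries correlated at 0.9818 to 0.99043 over log2 values, and the first principal component, with 37.3% of the variance, placed the 3 KO libraries at -22.83 to -10.21 and the 3 WT libraries at 7.846 to 19.88. Markers of cord tissue were present throughout: Mbp (myelin basic protein) stood at 8642 ± 87.7 and 8329.6 ± 134 (mean ± SD of KO and of WT, n = 3 each), Snap25 (a synaptic protein of neurons) at 1212 ± 83.2 and 1361 ± 28.1 and Slc18a3 (the acetylcholine vesicle transporter of motor neurons) at 33.1 ± 5.20 and 30.8 ± 2.93. Differences are of mean log2(signal + 0.5) with their standard error (SE), a scale that understates the change of low genes, and adjusted p-values come from limma with Benjamini-Hochberg adjustment over the 15838 genes tested of 17420 in the table.

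Gaa (chr11:119267887-119285454, + strand, GRCm38) stood at 17.7, 17.0 and 15.7 in the KO libraries and 218, 221 and 236 in the WT libraries. The groups were far apart and the remaining KO signal was 0.0748-fold that of WT. The difference was -3.70 ± 0.09, adjusted p = 3.75e-12. A gene-level table does not show which exons the remaining reads came from. Ltbp4, which encodes a protein that binds latent TGF-beta in the extracellular matrix, was at 27.5 ± 1.61 and 28.4 ± 2.48 and did not pass the test (-0.05 ± 0.11, adjusted p = 0.937).

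Between KO and WT cord 183 of 15838 genes were called at an adjusted p under 0.05, which is 1.16%. Of these, 158 rose in KO (0.998% of the genes tested) and 25 fell (0.158%). The 3 KO and 3 WT libraries of all 183 did not overlap, a pattern seen in 23.9% of all genes tested (9.41% with KO higher and 14.5% with KO lower). At an unadjusted p under 0.05 stood 1733 genes. Changes over 2-fold were seen in 51 of the genes that rose and 6 of those that fell. The median difference over all genes was -0.02. With each of the 6 libraries left out in turn 101 to 145 genes were called, with 101, 102 and 112 without WT replicate 4, KO replicate 2 and WT replicate 5. The 6 libraries fitted alone gave 297 calls and DESeq2 on the recovered reads 386. Among the 158 were genes of microglia and macrophages, of complement, of reactive astrocytes and of lysosomes. The 47 gene lists used held 48 of the 183 called genes, and the other 135 were on no list.

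**Figure D1:**
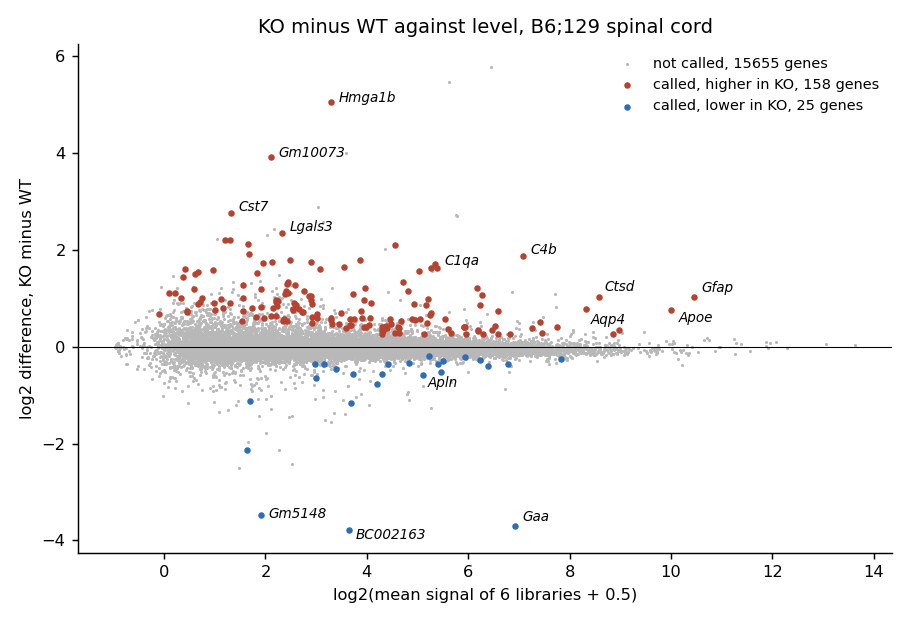
Log2 difference (KO minus WT, vertical axis) against the log2 of the mean signal of the 6 libraries plus 0.5 (horizontal axis) for the 15838 genes tested, with the 158 called genes that rose in red and the 25 that fell in blue. Gaa stands at -3.70 and Hmga1b at 5.05, and calls reach from the lowest levels to Gfap and Apoe at the right.

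The disease-associated microglia list holds genes that microglia raise around plaques, dying neurons and stored lipid. Of its 20 genes tested 12 rose and none fell, with a median of 0.94. Cd68, a lysosomal membrane protein of phagocytes, stood at 9.78, 10.9 and 12.1 in the KO libraries and 2.57, 3.13 and 2.96 in the WT libraries. Tyrobp, the signalling adaptor of TREM2, stood at 21.8, 22.5 and 22.3 in the KO libraries and 5.71, 5.55 and 7.12 in the WT libraries, and Trem2, a lipid-sensing receptor of microglia, at 16.9, 17.5 and 17.7 in the KO libraries and 5.62, 4.85 and 5.09 in the WT libraries. In all 3 genes the lowest KO library lay above the highest WT library by over 2-fold. The log2 difference was 1.75 ± 0.11, adjusted p = 6.86e-07 for Cd68, 1.78 ± 0.14, adjusted p = 5.3e-06 for Tyrobp and 1.65 ± 0.14, adjusted p = 1.61e-05 for Trem2. Cst7, which encodes cystatin F, an inhibitor of cathepsins, was low in WT, at 3.44, 3.79 and 4.25 in the KO libraries and 0.131, 0.110 and 0.188 in the WT libraries, and its difference was 2.75 ± 0.27, adjusted p = 7.52e-05. Lgals3, the sugar-binding galectin-3 that marks damaged lysosomes and activated phagocytes, was at 8.28, 8.04 and 7.17 in the KO libraries and 0.886, 1.15 and 1.42 in the WT libraries (2.34 ± 0.21, adjusted p = 2e-05). The lipid carrier Apoe was abundant in both groups, at 1318, 1288 and 1265 in the KO libraries and 759, 755 and 788 in the WT libraries, and rose by 0.75 (± 0.07, adjusted p = 3.98e-05). More cells of a type and more RNA per cell cannot be told apart in whole cord.

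The other called genes of that list were Ctsd, Cd63 and Ctsb, described with the lysosome, and Clec7a, Itgax and Ccl3. Clec7a, which encodes the pattern receptor dectin-1, spread widely in KO, at 3.50, 1.86 and 5.34 in the KO libraries and 0.567, 0.141 and 0.349 in the WT libraries (2.19 ± 0.40, adjusted p = 0.0131). Its KO replicates differed among themselves by more than 2-fold, and the call was lost without KO replicate 1 or 3 or WT replicate 5 or 6 (adjusted p up to 0.0795). Itgax, which encodes the integrin CD11c, differed by 1.53 ± 0.29, adjusted p = 0.0144 and its call was lost without KO replicate 1 or 2 or WT replicate 5 or 6 and in edgeR (adjusted p up to 0.0873). Ccl3, a chemokine, differed by 1.11 ± 0.21, adjusted p = 0.0172 and its call was lost without KO replicate 2 or 3 or WT replicate 4 or 6 (adjusted p up to 0.105). Of the 8 members that did not pass, Spp1 (osteopontin) differed by 0.15 ± 0.14, adjusted p = 0.766 and Fabp5, a fatty acid carrier, by 0.10. Gpnmb, a lysosomal glycoprotein of lipid-laden phagocytes that was singled out after its values were seen, stood at 13.4, 15.9 and 12.4 in the KO libraries and 0.741, 1.68 and 2.19 in the WT libraries, with no overlap and 2.88 ± 0.83, adjusted p = 0.143 in the fit of all cord libraries. In the fit of the 6 libraries alone its adjusted p was 0.00136.

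**Figure D2:**
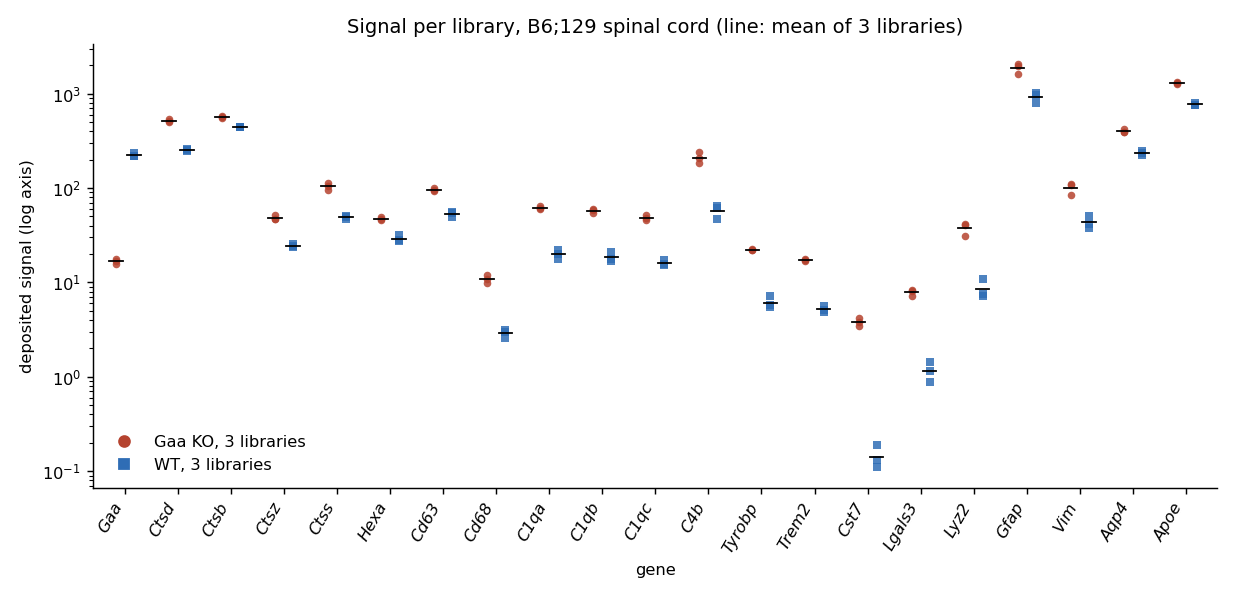
Deposited signal (log axis) of 21 genes in each of the 3 KO libraries (red circles) and 3 WT libraries (blue squares) of cord, with a line at each mean. Gaa is low in KO, and the other genes plotted are higher in all 3 KO libraries than in any WT library, as Cst7 with KO values of 3.44 to 4.25 against 0.110 to 0.188.

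Among 16 genes of resting (homeostatic) microglia 6 rose and none fell, with a median of 0.50. Besides Tyrobp and Trem2, which stand on both lists, these included P2ry12, Aif1 and Fcrls. P2ry12, a receptor for released ADP that microglia lose in many disease states, was at 17.9, 18.8 and 22.3 in the KO libraries and 12.9, 13.6 and 12.2 in the WT libraries, with no overlap (0.58 ± 0.09, adjusted p = 0.00334). Aif1, which encodes the cytoskeletal marker IBA1, differed by 0.80 ± 0.14, adjusted p = 0.0105, a call lost without KO replicate 2 or WT replicate 5 (adjusted p up to 0.0639). Fcrls, an Fc receptor-like protein, differed by 1.91 ± 0.34, adjusted p = 0.0106, a call lost without KO replicate 2 or WT replicate 6 (adjusted p up to 0.0649). The growth factor receptor Csf1r (0.23 ± 0.05, adjusted p = 0.0591), the chemokine receptor Cx3cr1 (0.57 ± 0.13, adjusted p = 0.0591), Tmem119 (0.35 ± 0.11, adjusted p = 0.2) and the microglial transcription factor Sall1 (-0.01 ± 0.11, adjusted p = 0.99) did not pass the test. Tyrobp, Trem2 and Fcrls thus rose over 2-fold, and the other called members by less. Without KO replicate 2 the list had 4 called members in place of 6.

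Of 10 other macrophage markers tested 4 rose, with a median of 0.93. Mpeg1, the pore-forming perforin-2 of phagocytes, stood at 63.7, 57.0 and 63.5 in the KO libraries and 17.4, 17.8 and 20.7 in the WT libraries, with all KO libraries far above WT (1.70 ± 0.19, adjusted p = 0.00026). Lyz2, which encodes lysozyme of myeloid cells, stood at 41.0, 41.4 and 30.9 in the KO libraries and 11.0, 7.62 and 7.14 in the WT libraries (2.09 ± 0.33, adjusted p = 0.00391). Part of its reads could belong to its close copy Lyz1. Fcer1g and Fcgr3, chains of activating Fc receptors, differed by 1.14 (adjusted p = 0.000467) and 0.89 (adjusted p = 0.00347). Markers of border macrophages did not pass, with Mrc1 at 0.46 (adjusted p = 0.714), Cd163 at -0.11 (adjusted p = 0.933) and Lyve1 at 0.01. The summed signal of the list was 126 to 143 in KO and 43.7 to 47.7 in WT. None of 8 lymphocyte and neutrophil genes tested was called, although all 8 stood above 0, and neither was any of 6 MHC class II genes. Adgre1, which encodes the macrophage antigen F4/80 and stood on no list, was at 7.49, 7.85 and 9.12 in the KO libraries and 2.34, 1.84 and 1.89 in the WT libraries (1.78 ± 0.20, adjusted p = 0.00029). Lag3, an inhibitory receptor known from T cells, was at 5.30, 6.88 and 6.53 in the KO libraries and 1.76, 1.34 and 1.40 in the WT libraries (1.75 ± 0.24, adjusted p = 0.00164), and Lilrb4a, an inhibitory receptor of myeloid cells with close paralogs, differed by 2.12 ± 0.23, adjusted p = 0.000196.

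Complement marks cells and debris for removal, and C1q, built from 3 chains, starts its classical pathway. All 3 chains rose about 3-fold. C1qa was at 60.3, 61.0 and 65.2 in the KO libraries and 17.6, 21.9 and 20.2 in the WT libraries, C1qb at 53.7, 59.2 and 59.3 in the KO libraries and 16.8, 17.7 and 20.9 in the WT libraries and C1qc at 45.7, 48.5 and 51.2 in the KO libraries and 15.6, 15.3 and 17.4 in the WT libraries. The 3 genes, which lie side by side on chromosome 4, had differences of 1.62, 1.62 and 1.56 (adjusted p = 4.16e-06, adjusted p = 0.000196 and adjusted p = 4.55e-05). C4b, the next component of the pathway, was at 186, 206 and 239 in the KO libraries and 47.5, 62.0 and 63.7 in the WT libraries (1.86 ± 0.18, adjusted p = 6.27e-05), and reads of its copy C4a may be counted with it. In all, 7 of 16 complement genes rose and none fell, with a median of 0.47. The others were the anaphylatoxin receptor C3ar1 (1.73 ± 0.21, adjusted p = 0.000566), the integrin chain Itgb2 (1.04 ± 0.15, adjusted p = 0.00293) and Clu, the chaperone clusterin, which differed by only 0.25 (adjusted p = 0.0307) and lost its call without KO replicate 2 or 3 or WT replicate 4, 5 or 6 and in the fit of the 6 libraries alone (adjusted p up to 0.161). C3, the component on which all pathways converge, did not pass (0.23 ± 0.12, adjusted p = 0.508).

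Gfap, the intermediate filament of astrocytes, stood at 1630.5, 1952 and 2051 in the KO libraries and 793, 1017 and 973 in the WT libraries. The lowest KO library lay above every WT library, and the difference was 1.02 ± 0.13, adjusted p = 0.000971. Vim, which encodes vimentin of astrocytes and mesenchymal cells, was at 108, 110.4 and 84.1 in the KO libraries and 51.1, 37.6 and 41.5 in the WT libraries (1.21 ± 0.18, adjusted p = 0.00334). Of 17 astrocyte reactivity genes 7 rose and none fell, and all 17 stood above 0, with a median of 0.61. The others were C4b, which reactive astrocytes also express, the small heat shock protein Hspb1 (0.56 ± 0.07, adjusted p = 0.00102), the cytokine receptor Osmr (0.85 ± 0.14, adjusted p = 0.00537), the surface glycoprotein Cd109 (1.29 ± 0.17, adjusted p = 0.00107) and the protease inhibitor Timp1 (1.10 ± 0.23, adjusted p = 0.0333), whose call was lost without KO replicate 1 or 2 or WT replicate 4, 5 or 6 and with a pseudocount of 2 (adjusted p up to 0.187). Serpina3n, a serine protease inhibitor often used as a reactivity marker, overlapped between the groups at 76.0, 76.9 and 137 in the KO libraries and 36.3, 129 and 125 in the WT libraries (0.15 ± 0.36, adjusted p = 0.937). Cd44, the hyaluronan receptor, did not pass either (0.62 ± 0.16, adjusted p = 0.0904).

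Of 17 genes of astrocyte identity only Aqp4 was called, and the list's median was 0.09. Aqp4, the water channel of astrocyte endfeet, was at 391, 393 and 420.0 in the KO libraries and 221, 248 and 237 in the WT libraries (0.77 ± 0.12, adjusted p = 0.00334). The glutamate transporter Slc1a2 was at 1095 ± 58.7 and 1039 ± 39.9 and did not pass (0.07 ± 0.08, adjusted p = 0.794). Summed over the identity list the signal was 5780 to 6040 in KO and 5430 to 5630 in WT, while the reactivity list summed to 2110 to 2600 and 1000 to 1320.

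Promoters of lysosomal genes often carry an E-box of the letters CACGTG, the core of the element that TFEB binds. GAGGAAGT is a core bound by PU.1, a factor of myeloid cells. RefSeq windows of 250 bases before to 50 after the start (GRCm38.p6) were searched on both strands. Shown are those of Gaa, of 3 lysosomal genes with CACGTG that rose and of 2 genes with GAGGAAGT that rose. Of the latter, Ctss is on the cathepsin list and C1qc on the complement list. Each window is shown from 250 before to 20 after the start, with each match in capitals. CACGTG reads alike on both strands, and in Ctss and C1qc the capitals are the reverse complement of GAGGAAGT.
Gaa: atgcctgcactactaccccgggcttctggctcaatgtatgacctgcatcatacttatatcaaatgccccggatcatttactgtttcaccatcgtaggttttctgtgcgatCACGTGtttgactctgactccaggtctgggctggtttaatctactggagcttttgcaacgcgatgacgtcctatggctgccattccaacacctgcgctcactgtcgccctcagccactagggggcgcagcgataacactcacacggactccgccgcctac
Ctsd: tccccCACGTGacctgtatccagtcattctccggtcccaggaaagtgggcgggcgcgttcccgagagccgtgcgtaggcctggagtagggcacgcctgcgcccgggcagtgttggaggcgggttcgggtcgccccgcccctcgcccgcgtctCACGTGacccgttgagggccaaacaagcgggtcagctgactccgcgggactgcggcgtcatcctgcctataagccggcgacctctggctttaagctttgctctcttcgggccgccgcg
Ctsa: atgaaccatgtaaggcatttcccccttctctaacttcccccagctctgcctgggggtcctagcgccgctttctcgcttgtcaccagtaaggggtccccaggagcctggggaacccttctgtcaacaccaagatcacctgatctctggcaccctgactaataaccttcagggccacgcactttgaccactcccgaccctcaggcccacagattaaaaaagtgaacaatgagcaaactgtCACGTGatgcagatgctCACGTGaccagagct
Ctsl: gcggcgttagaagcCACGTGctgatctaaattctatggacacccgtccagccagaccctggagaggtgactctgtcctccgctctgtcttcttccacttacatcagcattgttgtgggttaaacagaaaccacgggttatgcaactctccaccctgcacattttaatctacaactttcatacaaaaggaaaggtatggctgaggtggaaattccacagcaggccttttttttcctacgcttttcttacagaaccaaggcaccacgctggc
Ctss: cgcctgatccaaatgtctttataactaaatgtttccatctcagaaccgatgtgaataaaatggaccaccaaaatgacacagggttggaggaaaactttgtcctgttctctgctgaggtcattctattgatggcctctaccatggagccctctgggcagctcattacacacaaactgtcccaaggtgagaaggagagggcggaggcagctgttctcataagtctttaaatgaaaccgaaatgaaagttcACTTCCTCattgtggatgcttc
C1qc: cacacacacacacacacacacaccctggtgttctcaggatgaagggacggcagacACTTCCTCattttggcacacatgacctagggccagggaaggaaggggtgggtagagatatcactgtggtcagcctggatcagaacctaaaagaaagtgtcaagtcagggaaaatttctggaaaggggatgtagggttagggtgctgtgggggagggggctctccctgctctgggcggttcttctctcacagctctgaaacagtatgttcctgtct
The windows lie at chr11:119267713-119267982 (+ strand), chr7:142387808-142388077 (- strand), chr2:164833523-164833792 (+ strand), chr13:64370501-64370770 (- strand), chr3:95526536-95526805 (+ strand) and chr4:136892895-136893164 (- strand). CACGTG begins 140 bases before the start in Gaa, 245 and 98 before it in Ctsd and 236 before it in Ctsl, and in Ctsa it spans the start with copies 12 before and 6 after it. CACGTG was found in a window of 14 of 51 lysosomal genes with an entry (27.5%), against 1306 of 11442 tested genes (11.4%). Of all 32851 single windows 2349 (7.15%) held it. A gene counted when any of its windows matched, so shares of genes and of single windows are not on 1 scale. The share of genes with CACGTG was 16 of 121 (13.2%) among the called genes that rose and 3 of 13 (23.1%) among the called lysosomal genes. GAGGAAGT was found in 10 of the 121 (8.26%), 383 of the 11442 (3.35%) and 1052 of all windows (3.2%). On the microglia, macrophage and complement lists it was found in 3 of 44 tested genes (6.82%) and 1 of 20 called genes (5%). On the lysosomal lists GAGGAAGT was found in 4 of 51 tested genes (7.84%) and 1 of 13 called genes (7.69%). These matches are a description of the letters in the windows and not of binding.

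Cathepsins are the lysosome's proteases, and 5 of 14 genes on their list rose and none fell, with a median of 0.38. Ctsd, an aspartic protease, stood at 497, 513 and 534 in the KO libraries and 245, 255 and 261 in the WT libraries (1.02 ± 0.08, adjusted p = 6.58e-06). Ctsz, a carboxypeptidase of phagocytes, stood at 47.0, 47.2 and 51.8 in the KO libraries and 23.7, 24.4 and 25.3 in the WT libraries (0.98 ± 0.07, adjusted p = 5.3e-06). Ctss, a cysteine protease of antigen-presenting cells, stood at 104, 94.7 and 114 in the KO libraries and 49.5, 50.5 and 47.4 in the WT libraries (1.07 ± 0.13, adjusted p = 0.000566). These 3 genes rose about 2-fold with little spread within either group. Ctsb and Ctsl, cysteine proteases found in most cell types, rose less: Ctsb was at 557, 562 and 576 in the KO libraries and 448, 442 and 446 in the WT libraries (0.34 ± 0.05, adjusted p = 0.00334) and Ctsl at 66.8, 70.9 and 68.9 in the KO libraries and 51.0, 52.2 and 53.3 in the WT libraries (0.40 ± 0.06, adjusted p = 0.00372). The protease Lgmn differed by 0.02 and the inhibitor Cst3 by 0.27, without a call. Over the whole list the signal summed to 2070 to 2160 in KO and 1510 to 1540 in WT.

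Of 31 lysosomal hydrolases that cut sugars, lipids and other substrates 6 rose and none fell, with a median of 0.20, and 26 of the 31 stood above 0. Hexa, which encodes an enzyme chain that removes sugars from gangliosides, was at 46.9, 49.1 and 45.7 in the KO libraries and 28.0, 27.6 and 31.8 in the WT libraries (0.69 ± 0.07, adjusted p = 0.000126). The lowest KO library lay well above the highest WT library. Galc, which degrades the myelin lipid galactosylceramide, differed by 0.40 ± 0.07, adjusted p = 0.00539. The alpha-mannosidase Man2b1 (0.66 ± 0.12, adjusted p = 0.0102) and the protective protein Ctsa (0.32 ± 0.06, adjusted p = 0.0107) rose with less certain calls. Man2b1 lost its call without KO replicate 3 or WT replicate 5 or 6 (adjusted p up to 0.0611), and Ctsa without KO replicate 2 or 3 or WT replicate 6 (adjusted p up to 0.063). Without KO replicate 3 the list had 3 called members in place of 6. The beta-galactosidase Glb1 did not pass (0.54 ± 0.13, adjusted p = 0.0591).

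Among 21 lysosomal membrane and transport proteins 5 rose and none fell, with a median of 0.12. Besides Cd68 these were Cd63, a tetraspanin of late endosomes, at 94.7, 100.4 and 94.0 in the KO libraries and 49.4, 54.4 and 55.3 in the WT libraries (0.86 ± 0.07, adjusted p = 1.76e-05), and Laptm5, a lysosomal protein of blood-derived cells and microglia, at 35.5, 38.8 and 40.4 in the KO libraries and 15.2, 15.6 and 20.5 in the WT libraries (1.15 ± 0.14, adjusted p = 0.000492). Lamp2, a main protein of the lysosomal membrane, was at 97.8, 97.6 and 102 in the KO libraries and 76.1, 81.2 and 75.6 in the WT libraries, a small rise with no overlap (0.35 ± 0.05, adjusted p = 0.00334). Npc2, a cholesterol carrier of the lysosomal lumen, differed by 0.42 ± 0.06, adjusted p = 0.00334. Lamp1 differed by 0.19 ± 0.05, adjusted p = 0.114 and the calcium channel Mcoln1 by 0.03, without a call. None of 18 subunits of the proton pump that acidifies lysosomes was called, with differences between -0.13 and 0.11. Tcirg1, an isoform of that pump's membrane subunit that was on no list and was chosen after its values were seen, differed by 0.42 ± 0.08, adjusted p = 0.0115 and lost its call without KO replicate 2 or WT replicate 4, 5 or 6 (adjusted p up to 0.0791). On the 3 lysosomal lists the genes that rose over 1.5-fold included Cd68, Laptm5, Ctss, Ctsd, Ctsz, Cd63, Hexa and Man2b1, several of them known as genes of phagocytes.

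**Figure D3:**
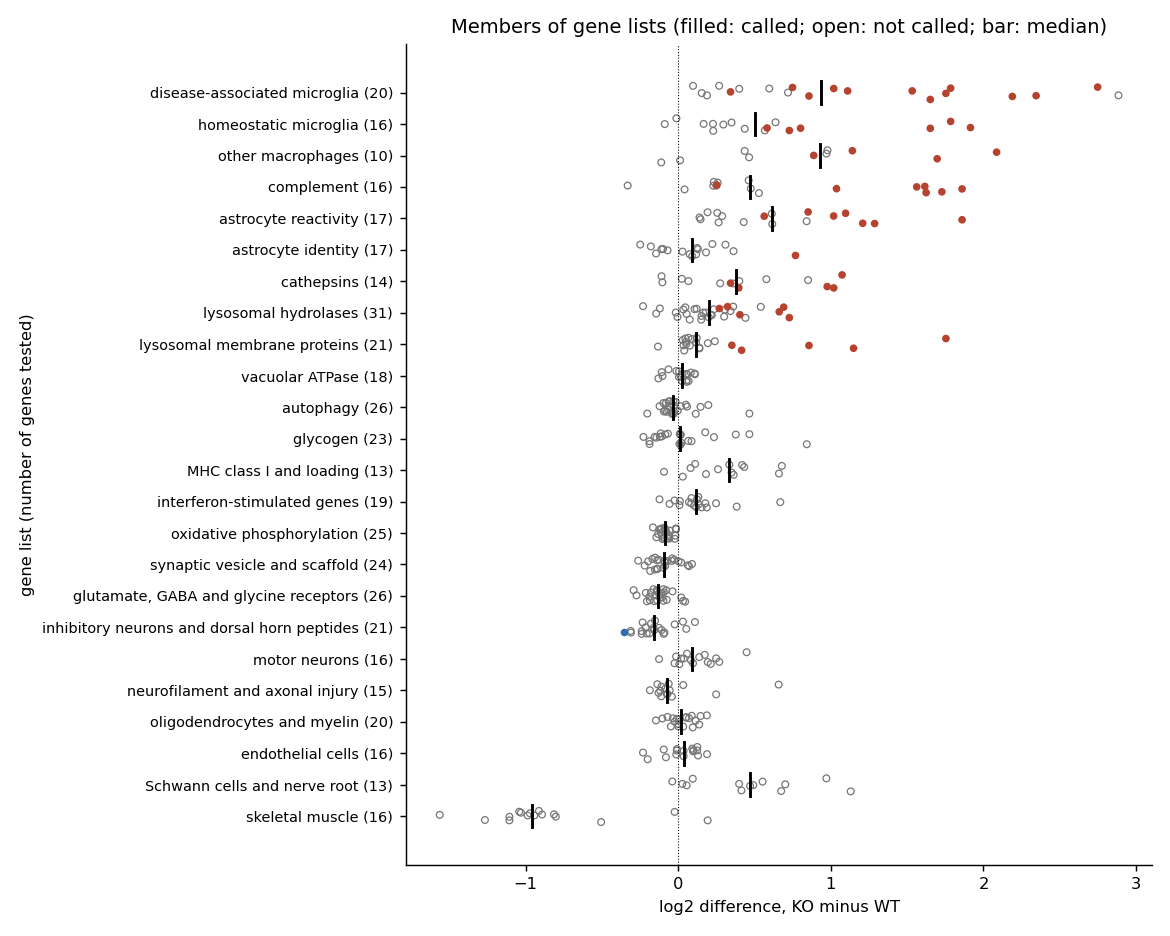
Log2 difference (KO minus WT, horizontal axis) of each tested member of 24 gene lists (vertical axis, with the number tested), filled where called and open where not, with a bar at each list's median. The medians of the microglia, macrophage, complement and astrocyte reactivity lists lie between 0.47 and 0.94, those of neuronal lists between -0.16 and 0.09, and skeletal muscle lies at -0.96 without a call.

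Lists for glycogen, autophagy and the TFEB family held no call. Of 23 glycogen genes none was called, with the synthase Gys1 at -0.08 (adjusted p = 0.845), the primer protein Gyg at 0.18 (adjusted p = 0.379) and Stbd1, which tethers glycogen to membranes, at 0.47. None of 26 autophagy genes was called, with a median of -0.03, and the receptor Sqstm1 was at 271 ± 5.53 and 277 ± 5.15 (-0.03 ± 0.05, adjusted p = 0.868). The transcription factors Tfeb and Tfe3 differed by 0.03 and -0.03, and none of the 21 genes of their list was called. That list also holds Gpnmb, at 2.88 without a call. Of its 21 genes 7 had no overlap and were higher in KO, and 3 were lower. Of all genes tested 9.41% and 14.5% had these patterns. Among galectins and genes of lysosome damage 2 of 13 rose, Lgals3 and the secreted binding protein Lgals3bp (0.73 ± 0.16, adjusted p = 0.0415), the latter called in none of the fits without 1 library (adjusted p up to 0.184). The damage sensor Lgals8 was at -0.09.

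No call was made among 24 glycolysis genes, 15 of the integrated stress response, 22 of cholesterol synthesis, 14 p53 targets, 16 immediate-early genes or 15 clock genes. All 25 oxidative phosphorylation genes stood below 0, between -0.17 and -0.01, and 12 of them had no overlap, lower in KO. That pattern was seen in 14.5% of all genes tested. None of the 25 was called. Of 18 chaperone genes only Hspb1 was called, and of 10 metallothionein and zinc genes only the zinc importer Slc39a1 (0.29 ± 0.06, adjusted p = 0.0184), lost without KO replicate 2 or 3 or WT replicate 4, 5 or 6 (adjusted p up to 0.121). Interferon-stimulated genes (0 of 19, median 0.12) and MHC class I genes (0 of 13, median 0.34) had no call, with B2m, the shared chain of class I molecules, at 110.3, 87.3 and 109 in the KO libraries and 66.1, 57.4 and 66.7 in the WT libraries (0.68 ± 0.17, adjusted p = 0.0858). Among 29 matrix genes Vim and Timp1 were called.

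Few neuronal genes were called. Of 21 genes of inhibitory neurons and dorsal horn peptides 1 fell, Calb2, which encodes the calcium buffer calretinin, at 94.9, 96.1 and 97.4 in the KO libraries and 128, 127 and 115 in the WT libraries (-0.36 ± 0.07, adjusted p = 0.0181). The call was lost without KO replicate 1, 2 or 3 or WT replicate 4 or 5 (adjusted p up to 0.107). The list's median was -0.16, and 8 of its members had no overlap and were lower in KO. None was called among 13 general neuron markers (median -0.14), 24 synaptic genes (-0.09), 26 transmitter receptors (-0.13), 25 voltage-gated channels (-0.13) and 15 genes of neurofilaments and axonal injury (-0.08). Of the receptors 11 had no overlap and were lower in KO, as were 10 channels, 5 general neuron markers, 5 synaptic genes and 5 neurofilament and axonal injury genes. Only 1 gene of these lists, from the last, had no overlap and was higher. Of all genes tested 14.5% had no overlap and were lower, and 9.41% were higher. The summed signal of the general neuron markers was 2420 to 2620 in KO and 2680 to 2720 in WT. Markers of motor neurons were not shifted downward. Chat, the enzyme that makes acetylcholine, was at 15.8, 13.1 and 19.9 in the KO libraries and 18.3, 19.2 and 15.4 in the WT libraries, and the list of 16 had a median of 0.09 and no call. The injury factor Atf3 differed by 0.66 (adjusted p = 0.226). The neurofilament Nefl was at 1196 ± 93.1 and 1314 ± 80.5 (-0.14 ± 0.08, adjusted p = 0.569). None of 20 oligodendrocyte and myelin genes was called (median 0.02), nor any of 15 precursor, 10 ependymal, 16 endothelial or 12 pericyte genes.

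Dissected cord can carry nerve root, meninges, muscle and blood, and summed markers of these tissues varied between libraries. Schwann cell markers summed to 430, 606 and 181 in KO replicates 1 to 3 and to 556, 142 and 194 in WT replicates 4 to 6, so the groups overlapped. Skeletal muscle markers summed to 353, 195 and 165 and to 472, 809 and 137. Meningeal markers summed to 392, 642 and 311 and to 316, 327 and 344. Globin and other blood genes summed to 1500, 969 and 705 in KO and to 783, 545 and 560 in WT, where only WT replicate 4 reached into the KO range. None of the genes on these 4 lists was called. Disease-associated microglia genes summed to 2850, 2870 and 2870 in KO and 1780, 1780 and 1820 in WT, sums to which Apoe, Ctsb and Ctsd gave most of the signal. The part of blood, root, meninges or muscle content in the microglia, macrophage and complement values was not tested.

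**Figure D4:**
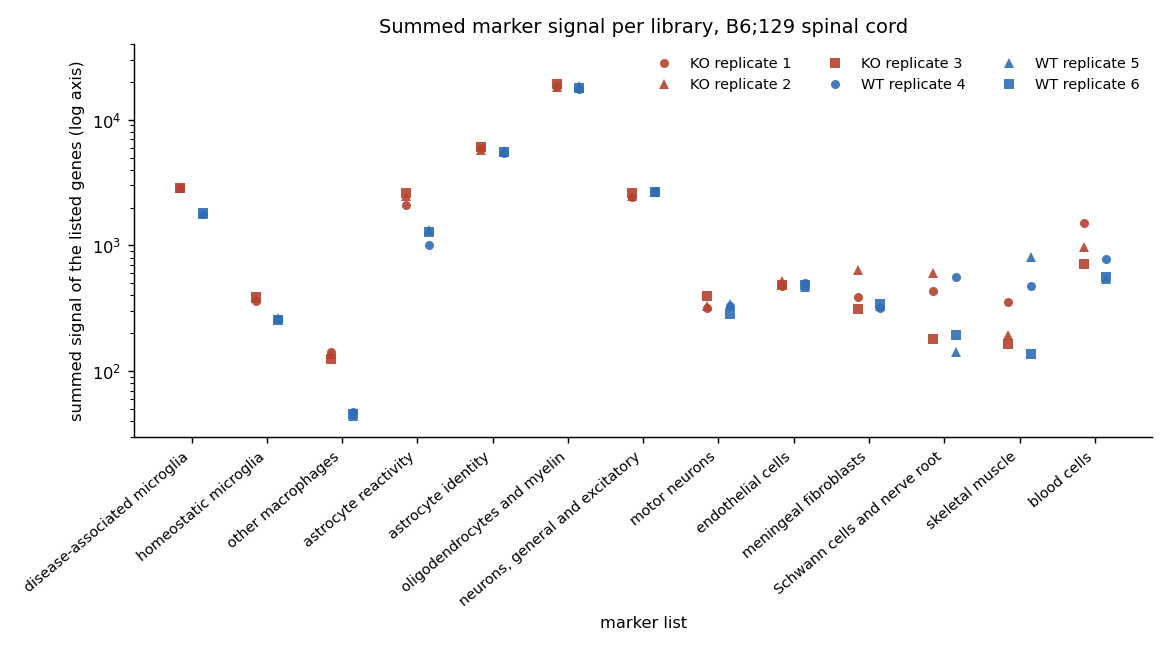
Summed signal (log axis) of the genes of 13 marker lists (horizontal axis) in each library, red for KO and blue for WT, with 1 symbol per replicate. The microglia, macrophage and astrocyte reactivity sums separate by genotype, while the Schwann cell, meningeal and muscle sums overlap and reach 606, 642 and 809 in single libraries.

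The genes that fell were few, and several of those with large differences besides Gaa have near-identical copies, whose reads the counting can move from 1 copy to another. Such values are uncertain. Gm5148, a predicted protein-coding gene, was at 0.172, 0.141 and 0.0152 in the KO libraries and 7.37, 7.56 and 4.37 in the WT libraries (-3.48 ± 0.25, adjusted p = 3.08e-06). The processed pseudogene BC002163 was at 11.3, 0.0156 and 0.0152 in the KO libraries and 13.8, 23.3 and 23.2 in the WT libraries, so KO replicate 1 stood near the WT libraries, and its call (-3.78 ± 0.83, adjusted p = 0.0405) was lost without KO replicate 2 or 3 or WT replicate 4, 5 or 6, in edgeR, in DESeq2 and in the fit of the 6 libraries alone (adjusted p up to 0.874). Gm3375 differed by -1.17 ± 0.20, adjusted p = 0.00652, and Gm10093 by -2.12 ± 0.46, adjusted p = 0.0373, a call lost without KO replicate 2 or 3 or WT replicate 4 or 5, in edgeR, in DESeq2 and in the fit of the 6 libraries alone (adjusted p up to 0.298). Some of the rises were of the same kind. Hmga1b, a copy of the chromatin protein gene Hmga1, was at 18.1, 18.8 and 18.2 in the KO libraries and 0.0145, 0.204 and 0.00890 in the WT libraries, from 2096 reads over the KO libraries and 6 over the WT libraries, a ratio of 374 (95% counting interval 171 to 1020) and a log2 difference of 5.05 ± 0.21, adjusted p = 4.81e-09. Hmga1 itself was at 35.3, 40.04 and 36.4 in the KO libraries and 62.0, 59.2 and 65.7 in the WT libraries, lower in each KO library without a call (-0.74 ± 0.42, adjusted p = 0.568), and at an adjusted p of 0.000735 in the fit of the 6 libraries alone. Added together, the pair had a signal of 53.5, 58.9 and 54.6 in KO and 62.0, 59.4 and 65.7 in WT. Gm10073 was at 7.18, 8.63 and 6.92 in the KO libraries and 0.0145, 0.0157 and 0.0805 in the WT libraries, from 857 and 4 reads, a ratio of 229 (89.2 to 843) and a log2 difference of 3.91 ± 0.18, adjusted p = 1.49e-08.

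Further genes that fell had smaller differences and no overlap. Pcdhgb8, a protocadherin of the gamma cluster on chromosome 18, was at 1.55, 1.45 and 1.66 in the KO libraries and 4.11, 3.91 and 3.83 in the WT libraries (-1.12 ± 0.15, adjusted p = 0.000992). Its neighbours in the cluster share their constant exons, which can affect how reads are assigned. Apln, the secreted peptide apelin, was at 26.4, 26.2 and 28.6 in the KO libraries and 40.6, 42.1 and 39.2 in the WT libraries (-0.58 ± 0.09, adjusted p = 0.00393). Sgpp2, a phosphatase of sphingosine-1-phosphate, differed by -0.53 ± 0.09, adjusted p = 0.00666 and Mcf2l, an exchange factor for small GTPases, by -0.41 ± 0.06, adjusted p = 0.00439. Further calls of this direction were less steady. Gucy1a3, a subunit of the nitric oxide receptor guanylate cyclase, differed by -0.78 ± 0.14, adjusted p = 0.0093 and lost its call without KO replicate 2 or WT replicate 4 (adjusted p up to 0.063). Usp13, a deubiquitinase, differed by -0.57 (adjusted p = 0.0113), lost without KO replicate 2 or WT replicate 4 or 5 (adjusted p up to 0.0772). The long non-coding RNA Cep83os differed by -0.57 (adjusted p = 0.0115), lost without KO replicate 3 or WT replicate 4 (adjusted p up to 0.0781). The centriole gene Sclt1 differed by -0.66 (adjusted p = 0.0218), lost without KO replicate 1, 2 or 3 or WT replicate 4 or 5 (adjusted p up to 0.136). The kinase Cdkl1 differed by -0.46 (adjusted p = 0.0405), lost without KO replicate 2 or 3 or WT replicate 4 or 5, without a filter and in the fit of the 6 libraries alone (adjusted p up to 0.215).

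A knockout made in cells of one strain can carry that strain's alleles around the target. Within 5 Mb of the start of Gaa on chromosome 11, 169 genes were tested and 5 besides Gaa were called (2.98%, against 1.16% of all genes). They were Hmga1b, the myeloid receptors Cd300c2 (1.28 ± 0.16, adjusted p = 0.000585) and Cd300a (0.89 ± 0.14, adjusted p = 0.00391), Lgals3bp, and Engase, a cytosolic enzyme that trims glycans (-0.37 ± 0.08, adjusted p = 0.046), whose call was lost without any 1 of the 6 libraries, without a filter and in the fit of the 6 libraries alone (adjusted p up to 0.225). Cd300c2 was at 3.48, 3.39 and 4.15 in the KO libraries and 1.06, 1.12 and 1.51 in the WT libraries. Which strain's alleles these mice carry there was not tested.

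The mixed-background cord offers the same contrast in another 3 KO and 3 WT animals. Their libraries share the fit and its estimate of the spread with B6;129, so calls on both backgrounds are not independent. Background cannot be told apart from the series of columns in which the libraries were deposited, and mitochondrial transcripts took 13.2% to 17.1% of cord reads there. There 2061 genes were called (13% of 15838), and 918 without WT replicate 4 of that background. Of the 183 called genes, 135 (73.8%, or 6.55% of the 2061) were called in the same direction, 128 higher and 7 lower, where 7.16% and 5.85% of all genes were. Of the rest, 47 were not called and 1 was called in the opposite direction. Of the 158 that rose 152 stood above 0 on the mixed background, with a median of 0.67 beside 0.75 on B6;129. Cd68 differed by 1.20, adjusted p = 2.49e-05 there, C1qa by 1.39, adjusted p = 2.19e-05, Lgals3 by 2.16, adjusted p = 3.37e-05 and Gfap by 1.40, adjusted p = 2.97e-05. The lysosomal genes Ctsd (0.72, adjusted p = 0.000137) and Hexa (0.44, adjusted p = 0.0023) were called there as well. Lyz2 (0.89, adjusted p = 0.0848) and Clec7a (1.20, adjusted p = 0.0652) were not.

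The test of the difference between backgrounds called 83 genes (0.524%), of which 10 were among the 183, and 43 to 95 genes with 1 library left out. Of these 10, Hmga1b, Gm10073 and Gm5148 have near-identical copies, and Lars, Usp13, Gucy1a3, Wdfy1, Cd22 and ENSMUSG00000110040, which lies next to Ctsd and whose reads cannot be told from its neighbour's where strand was not used, make up the rest with Tdgf1. Tdgf1, an EGF-like co-receptor of development, was at 3.19, 3.42 and 3.27 in the KO libraries and 0.247, 0.361 and 0.384 in the WT libraries here (2.19 ± 0.43, adjusted p = 0.0205) but differed by -2.07, adjusted p = 0.00813 on the mixed background. Its B6;129 call was lost without any 1 of the 6 libraries and with a pseudocount of 2 (adjusted p up to 0.0993). Cd22, an inhibitory receptor of B cells and microglia, differed by 1.5 ± 0.20, adjusted p = 0.000992 here and by 0.01, adjusted p = 0.978 there. On the mixed background Cd22 stood at 0.162 in KO and 0.168 in WT, near the signal of a few reads. A KO effect on Cd22 could hardly be measured there. Members of 3 lists were called in this test, none of them called on B6;129. The mixed difference minus the B6;129 difference was 0.53 ± 0.08 (adjusted p = 0.00663) for Csf1r of homeostatic microglia, 1.16 ± 0.15 (adjusted p = 0.0029) for the basement membrane collagen Col4a2 and 0.56 ± 0.09 (adjusted p = 0.0115) for the potassium channel Kcnt1. A gene that missed the threshold is not shown to have changed equally. For Cd68 this difference was -0.56 ± 0.16 (adjusted p = 0.147), for C1qc -0.75 ± 0.21 (adjusted p = 0.147) and for Gfap 0.39 ± 0.19 (adjusted p = 0.447).

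**Figure D5:**
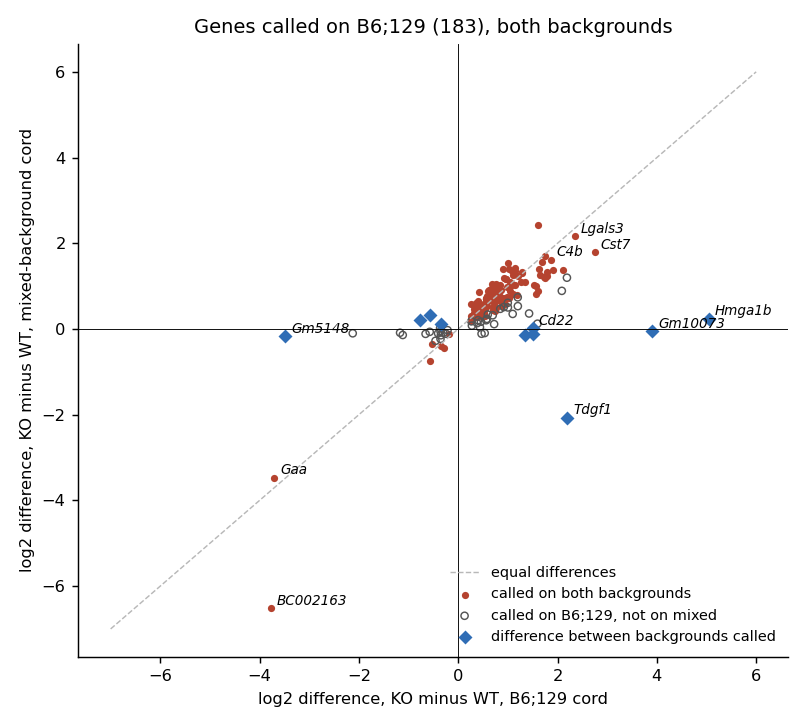
Log2 difference (KO minus WT) on the mixed background (vertical axis) against B6;129 (horizontal axis) for the 183 genes called on B6;129, with filled circles for genes called on both, open circles for genes not called on the mixed background and blue diamonds, whatever their calls, for the 10 whose difference between backgrounds was called. Most points lie in the upper right, and Tdgf1, Hmga1b, Gm10073 and Gm5148 lie far from the dashed line of equal differences.

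Quadriceps of the same 6 animals gives the same contrast in muscle. Of the 183 genes 161 were tested in both tissues: 105 were higher in KO in both, 14 lower in both and 8 called in opposite directions, in a tissue where 45.3% of the 13187 genes were called. The difference between tissues was itself called for 3346 genes (25.4%). Cd68 rose by 3.14 in quadriceps, with a cord minus quadriceps difference of -1.39 ± 0.39 (adjusted p = 0.0106). Lgals3 rose by 5.38, with a cord minus quadriceps difference of -3.03 ± 0.42 (adjusted p = 9.92e-06). Ctsd differed by 1.02 in cord and 0.32 in quadriceps, with a cord minus quadriceps difference of 0.70 ± 0.15 (adjusted p = 0.00134). Trem2 differed by 1.65 in cord and 1.79 in quadriceps, with a cord minus quadriceps difference of -0.14 ± 0.36 (adjusted p = 0.82). Aqp4 went the opposite way in muscle, with -3.60, with a cord minus quadriceps difference of 4.36 ± 0.34 (adjusted p = 2.77e-09). Gaa differed by -3.70 in cord and -4.07 in quadriceps, with a cord minus quadriceps difference of 0.37 ± 0.18 (adjusted p = 0.139). Some genes with the smallest adjusted p in the tissue test were not called in cord. The metallothionein Mt3 was at 178 ± 11.4 and 169 ± 10.2 in cord, a log2 difference of 0.08 ± 0.11 (adjusted p = 0.868). In quadriceps the log2 difference of Mt3 was 6.90, higher in KO.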

How the data were processed

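RNA of snap-frozen spinal cord and quadriceps from 15 male mice was sequenced as single-end reads of 61 bases from polyA-selected libraries (NEBNext Ultra), per the labels' protocols. The authors used cutadapt, RSEM, limma and edgeR on GRCm38, per the submitters' processing notes, whose versions and use of strand are not given in the sources used here. The values deposited by the authors are a normalized signal per gene; all of them came out as whole reads plus 0.5 times 1 unit per library (within 0.001), which gave the reads.

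Here log2(signal + 0.5) was fitted with limma 3.58.1 (R 4.3.3, eBayes with trend) for genes that reached a signal of 1 in 3 or more of the 15 cord libraries, in 1 fit of 5 cord groups, and p-values were adjusted by Benjamini-Hochberg over all 15838 genes. The comparison of tissues used all 30 libraries. Alternatives were a pseudocount of 2, a minimum signal of 4, no filter, quantile normalization, TMM, edgeR 4.0.16 and DESeq2 1.42.0 on the recovered reads, the 6 libraries alone, and each library left out. Positions are GENCODE vM21 (GRCm38), which held 17388 of the 17420 identifiers. Replicates were separate animals. On simulated data for this comparison (15838 genes) 63.7% of 1.5-fold and 83% of 2-fold changes were found, and 16 of 456 calls were false. Apart from the planted changes, the simulation gave all cord groups the same mean and the same dispersion for each gene. It held no difference between backgrounds and no libraries split within a group, so the rates may differ in the real data. Intervals of read ratios (95%) cover counting error only.

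Named genes are Gaa and Ltbp4, the 15 largest called changes in each direction without overlap, up to 4 called and the first 2 members of each list, up to 6 called genes of each difference test and called genes within 5 Mb of Gaa. Others (among them Gpnmb, Serpina3n, Cd22, Tcirg1, Hmga1, B2m, Cd44, C3 and further list members) were chosen after their values were seen. A few members that the rule names are not reported here. The comparison and all gene lists were chosen with earlier results of these data known. Cord and quadriceps libraries of 1 animal shared a number: in 15 of 15 animals the deviations from the group means correlated best with the animal's own other tissue (0.109 to 0.354).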

Additional observations from a re-analysis of the deposited data

Results flagged for a closer look

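The KO effect in cord differed between the mixed and the B6;129 background for 83 genes in the direct limma test. Values are the mixed difference minus the B6;129 difference on the log2 scale, and no cause was tested. Among genes with near-identical copies, or predicted genes, it was 5.05 for Tpm3-rs7, -4.81 for Hmga1b, -3.96 for Gm10073, 3.31 for Gm5148 and 3.19 for Gm9347. For the centrosomal kinesin Kif24 it was 2.99 and for Vwa5b2 it was 0.83. Tdgf1, with -4.26, was called in opposite directions on the 2 backgrounds. The immune receptor Cd22 had -1.49, the endosomal protein Wdfy1 -1.47 and ENSMUSG00000110040 -1.62, all higher in KO on B6;129. Cd22 was near the signal of a few reads in KO and in WT of the mixed background (0.162 and 0.168). Gucy1a3 had 0.98, Usp13 0.9 and Lars, the cytosolic leucyl-tRNA synthetase, 0.47.

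The KO effect differed between cord and quadriceps of the same B6;129 animals for 3346 genes in the direct limma test. The cord effect minus the quadriceps effect was -6.82 for the metallothionein Mt3, -4.91 for Ahnak2, -2.97 for Fam129b, -2.94 for Csdc2 and -2.8 for the adhesion molecule Ncam1. It was 2.67 for Amd1, an enzyme of polyamine synthesis. Of the genes that rose in cord, Lgals3 had -3.03 and Cd68 had -1.39, so the rise on this scale was larger in quadriceps. Gm10073 had -1.48, with a mean signal of 7.58 in KO and 0.0369 in WT cord, the latter from 4 reads. In quadriceps its means were 26.5 in KO and 0.148 in WT. With WT so near 0 in both tissues its log2 difference follows the KO level, so -1.48 cannot show in which tissue the rise was larger.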

How the results depend on the processing

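Of the 183 genes called between KO and WT cord, 82 (74 higher, 8 lower) were called under every alternative that gave a value, 83 in every fit without 1 library, and none changed direction. The count was 386 in DESeq2 on the recovered reads (307 higher, 79 lower), 297 in the fit of the 6 libraries alone and 101 to 145 with 1 library left out. Under the other alternatives it was 159 to 245. The count of differences between backgrounds, 83, was 278 in DESeq2 and 43 to 95 with 1 library left out. On the mixed background 918 to 1892 genes were called with 1 library left out, in place of 2061. The test between tissues gave 2746 to 3289 with 1 library left out, in place of 3346. With the animal as a replicate block it gave 3343, of which 3034 were also called without the block. The block changed no count by over 1.5 times, but it changed which genes were called. The tissue differences quoted come from the fit without the block. No paired analysis was possible because the KO and WT cord animals compared share no replicate numbers. The fit of all cord libraries takes the spread from groups that include treated animals. At this depth a gene without reads could have a signal of up to 0.0536 to 0.0943, and with 3 libraries against 3 an exact permutation test of a single value cannot go below 0.1.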

Other observations

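Further gene groups were assembled after their values were seen, so their counts carry no test. The counts cannot be weighed against the 0.998% of all genes tested that were called higher. The group of inhibitory receptors of immune cells held 8 genes and was not a full family, since Lilrb4a, described above, was left out. All 8 were called higher in KO cord with all libraries. Besides Lag3, Cd22 and Cd300a these were Havcr2 (1.01 ± 0.15, adjusted p = 0.00356), which encodes TIM-3, Cd33 (1.05 ± 0.17, adjusted p = 0.00491), a sialic acid receptor of myeloid cells, Sirpa (0.25 ± 0.04, adjusted p = 0.00372), the receptor for the signal CD47, Vsir (0.32 ± 0.06, adjusted p = 0.0137) and Fcgr2b (1.19 ± 0.20, adjusted p = 0.00735), the inhibitory Fc receptor. The call of Vsir was lost without KO replicate 2 or 3 or WT replicate 4 or 5 (adjusted p up to 0.0844). Of the phagocyte NADPH oxidase and its proton channel 4 of 7 genes rose and all 7 stood above 0. Cyba, the small membrane chain of the oxidase, was at 6.23, 7.82 and 6.65 in the KO libraries and 2.72, 2.91 and 3.24 in the WT libraries (1.10 ± 0.16, adjusted p = 0.00334), with no overlap. Ncf1 (0.70 ± 0.10, adjusted p = 0.00178), Ncf4 (0.72 ± 0.14, adjusted p = 0.0159) and the proton channel Hvcn1 (0.96 ± 0.19, adjusted p = 0.0211) rose as well, while Cybb, the catalytic chain, spread widely and did not pass (0.97 ± 0.32, adjusted p = 0.223). Ncf4 lost its call without KO replicate 1 or 2 or WT replicate 4 or 6 (adjusted p up to 0.0856), and Hvcn1 without KO replicate 2 or WT replicate 4 or 6 (adjusted p up to 0.136).

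Among genes of lipid and iron handling, also grouped after their values were seen, 5 of 6 rose. Grn, which encodes progranulin, a lysosomal protein, was at 46.9, 46.0 and 45.1 in the KO libraries and 25.1, 23.6 and 26.9 in the WT libraries, with no overlap (0.86 ± 0.07, adjusted p = 1.76e-05). The cholesterol exporter Abca1 (0.57 ± 0.12, adjusted p = 0.0405), the lipid droplet protein Plin2 (0.45 ± 0.10, adjusted p = 0.0416), the ferritin light chain Ftl1 (0.51 ± 0.10, adjusted p = 0.0151) and Apoe rose too, and the ferritin heavy chain Fth1 did not pass (0.15 ± 0.15, adjusted p = 0.782). Abca1 lost its call without any 1 of the 6 libraries (adjusted p up to 0.158), Plin2 without KO replicate 2 or 3 or WT replicate 4, 5 or 6 (adjusted p up to 0.191), and Ftl1 without KO replicate 2 or WT replicate 5 or 6 (adjusted p up to 0.0895). Ftl1 has many pseudogene copies, so its reads are uncertain. Of 5 Toll-like receptors tested Tlr2 (0.85 ± 0.19, adjusted p = 0.0471) and Tlr3 (0.41 ± 0.09, adjusted p = 0.0405) rose. Tlr2 lost its call without KO replicate 1, 2 or 3 or WT replicate 4 or 5, at a minimum signal of 4, without a filter and in edgeR (adjusted p up to 0.219), and Tlr3 without KO replicate 1, 2 or 3 or WT replicate 4 or 6 (adjusted p up to 0.191). Serpina3n, which overlapped on B6;129, differed by 1.37, adjusted p = 0.0236 on the mixed background, and Gpnmb by 0.01, adjusted p = 0.996. The SE of Gpnmb was large in the fit of all cord libraries, so Gpnmb is not shown to be unchanged there.

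Some of the largest differences between group means were not called, and libraries within 1 group were split. The predicted gene Gm26825 was at 254, 267 and 0.0152 in the KO libraries and 0.0145, 0.330 and 0.00890 in the WT libraries (5.77 ± 1.99, adjusted p = 0.251), with KO replicate 3 at the level of WT. Gm15459 differed by 5.47 ± 1.58, adjusted p = 0.147 and Gm15487 by 3.98 ± 1.09, adjusted p = 0.116.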
